A study of Homo sapiens with 94 samples.

Results

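The metalloproteinases of the MMP, ADAM and ADAMTS families and the 4 TIMP inhibitors were followed in xenografts of NCI-H226 after a single oral dose of the TEAD inhibitor K-975. The members were chosen by gene symbol, with 23 MMP, 20 ADAM, 19 ADAMTS and 4 TIMP genes (66 of the 20239 genes of the table). The set was selected on ADAMTS15, which was lower at 200 mg/kg and 3-6 h, so that this comparison is described below without a test. NCI-H226 is an established mesothelioma line with a deletion of NF2, an upstream brake on YAP and TEAD. K-975 attaches to the TEAD transcription factors at the pocket that normally carries palmitate.

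Subcutaneous tumors grew from 1 line in female SCID mice, so all tumors share the NF2 deletion and a host without mature T and B cells. There were 94 tumors in 3 studies, which ended 1 h, 3-6 h or 24 h after dosing. In every study 5 tumors received nothing. Vehicle, a mixture of ethanol, Solutol and glucose given by mouth, had 5 tumors at 1 h, 10 at 3-6 h and 4 at 24 h. K-975 was given at 30, 100 or 200 mg/kg, with 5 tumors a dose at 1 h and at 24 h and 10 a dose at 3-6 h. Vehicle and 200 mg/kg were dosed at 20 mL/kg and both lower doses at 10 mL/kg. Volume and dose can therefore not be told apart between 200 mg/kg and the lower doses. The same holds between the lower doses and vehicle. At 1 h and at 24 h each arm was a single cage group, so treatment and cage cannot be told apart there. At 3-6 h vehicle and each dose had 2 cage groups of 5 mice, and which of the pair belongs to 3 h or to 6 h is not in the labels.

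MMPs are zinc endopeptidases that cut collagens, laminins and other matrix proteins, either after secretion or from an anchor in the membrane. ADAMs are transmembrane proteins, some of which shed growth factors, cytokines and receptors from the cell surface, while ADAMTS enzymes are secreted, bind matrix through thrombospondin repeats and process procollagens and proteoglycans such as aggrecan and versican. TIMPs occupy the active site of these enzymes, and the balance between enzyme and inhibitor is known to shape the matrix around tumors.

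The values are FPKM, in which fragments are scaled to transcript length and library size, measured after capture with probes. They allow levels of different genes to be set side by side per length, although capture can differ between probes. In 91 libraries 11344 to 11665 genes reached 1 FPKM. In 3 shallow libraries 702, 7196 and 8531 genes did, and these libraries (1 each of 30 and 100 mg/kg at 24 h and 200 mg/kg at 1 h) were left out unless stated. TEAD targets served as a check of the comparison. At 200 mg/kg and 24 h, 4 of 6 were lower than in vehicle (CCN2, CCN1, TEAD4 and AXL), CCN2 at 4.32 ± 1.24 FPKM (SD, n = 5) against 13.2 ± 2.07 (n = 4). Transcripts were measured in bulk tumors, so fewer cells and less RNA per cell cannot be told apart. How reads of the mouse host were treated is not given, and a host part in the levels of the members was not tested.

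In tumors without drug, 3 members stood above the rest. Over the 34 untreated and vehicle tumors, ADAM10, a sheddase of Notch receptors and cadherins, had the highest level at 768 ± 60.9 FPKM (SD, n = 34). TIMP2, an inhibitor that also takes part in the activation of pro-MMP2 by MMP14, followed at 717 ± 79.2 FPKM, and ADAM9, another membrane sheddase, at 464 ± 25.7 FPKM. ADAM10 and TIMP2 lay close, with ADAM10 above TIMP2 in 24 of 34 tumors, whereas TIMP2 exceeded ADAM9 and ADAM9 exceeded TIMP1 in 34 of 34. TIMP1 stood at 134.5 ± 33.6 FPKM and TIMP3 at 17.2 ± 2.27 FPKM, and TIMP4 at 0.482 ± 0.320 FPKM did not pass the filter (at least 1 FPKM in at least 4 libraries).

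A group of 8 further members lay between 42.2 and 71.5 FPKM, and their ranges overlapped. ADAM15 (71.5 ± 7.86), the collagenase and MMP2 activator MMP14 (70.9 ± 15.9) and the procollagen N-propeptidase ADAMTS2 (69.3 ± 15.2) could not be ordered, since ADAM15 exceeded MMP14 in 19 of 34 tumors and MMP14 exceeded ADAMTS2 in 18. ADAM17, the convertase of tumor necrosis factor, was at 59.8 ± 7.02 FPKM and ADAM12, an ADAM with both a secreted and a membrane form, at 54.5 ± 21.1. ADAMTS1, a proteoglycanase, was at 48.2 ± 11.6, ADAMTS3 at 45.9 ± 5.62 and the membrane-type MMP15 at 42.2 ± 12.7 FPKM. ADAMTS15, which cuts aggrecan and versican, ranked below these with 18.2 ± 2.92 FPKM and ranged from 12.4 to 26.8. Its neighbors in the order were ADAMTS7 (28.5 ± 3.33 FPKM), which was higher in 34 of 34 tumors, and TIMP3, which was lower in 25 of 34.

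By role, the highest other members were ADAMTS10, a protein of the fibrillin microfibrils (40.6 FPKM), the stromelysin MMP3 (13.8 FPKM), the gelatinase MMP2 (11.98 FPKM), the collagenase MMP1 (5.79 FPKM), MMP28 among the remaining MMPs (2.84 FPKM) and ADAM11 among ADAMs that lack a working active site (1.58 FPKM). The gelatinase MMP9 averaged 0.367 FPKM. Of the 66 members, 27 reached 1 FPKM in every one of the 91 libraries, 17 never did and 5 were at 0 throughout. The study lists positive and negative effectors, genes whose RNA goes with or against YAP1-TEAD activity. Among the rarely detected members were 2 of its negative effectors, MMP13 (at 0 in 90 of 91 libraries) and ADAM28 (at 0 in 64). ADAMTS1, one of its positive effectors, was abundant. Neither matrilysin passed the filter, and 44 members were tested.

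**Figure D1:**
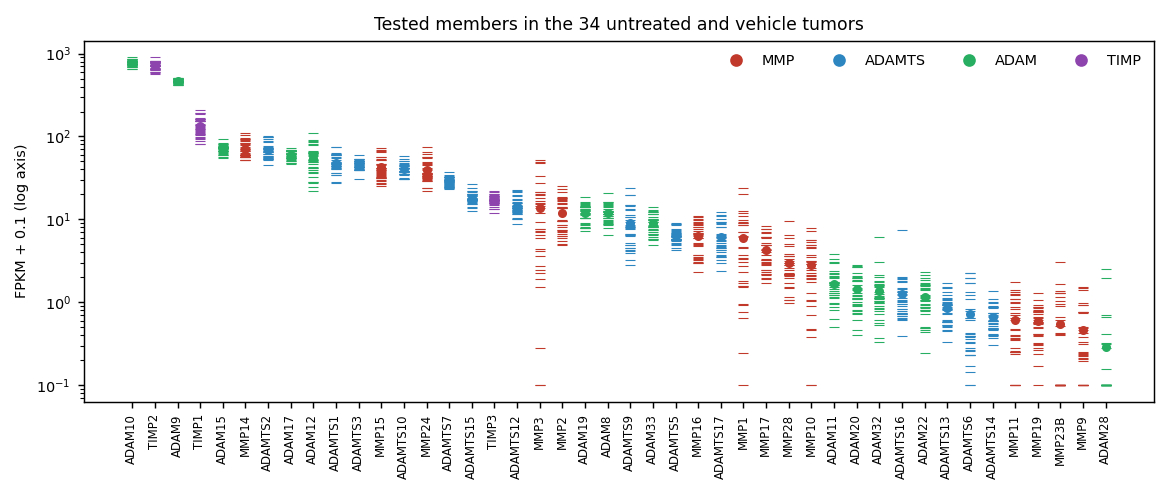
Level of each of the 44 tested members in the 34 untreated and vehicle tumors, as FPKM + 0.1 on a log axis. Each dash is 1 tumor and each dot the mean, colored by family. ADAM10, TIMP2 and ADAM9 lie above the rest, and MMP3, MMP1 and MMP10 spread over the widest ranges among members with a mean above 2 FPKM.

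Members differed in how evenly the tumors expressed them. Among the 27 members detected in every library, the coefficient of variation over control tumors ran from 5.54% for ADAM9 (412 to 506 FPKM) to 56.7% for ADAMTS9 (2.70 to 23.7 FPKM), with a median of 23.5%. ADAMTS15 was at 16.1%. MMP3 and MMP1 varied far more, at 101% and 95.6%.

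ADAMTS15 was lower after K-975 in the 24 h study. The gene (ENSG00000166106.3) lies at chr11:130448974-130476641 on the plus strand (GRCh38), next to ADAMTS8, which never reached 1 FPKM. At 24 h its FPKM was 16.5, 16.8, 17.2 and 20.4 in vehicle tumors and 15.2, 16.7, 17.4, 19.5 and 23.6 in untreated tumors. At 200 mg/kg the values were 9.11, 9.58, 10.7, 11.6 and 14.6. No treated tumor reached the lowest vehicle or untreated tumor. The mean of 11.1 ± 2.16 (SD, n = 5) against 17.7 ± 1.81 (n = 4) gave a log2 fold change of -0.64 (SE 0.14), with adjusted p = 0.00257 in limma. The call held without each of the 9 tumors in turn and with untreated tumors as reference (log2 fold change -0.69, adjusted p = 0.000448), and was lost when the 3 shallow libraries were kept (adjusted p = 1).

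At 100 mg/kg the 24 h values were 11.6, 13.7, 13.7 and 13.7 FPKM (mean 13.2 ± 1.05, n = 4). All 4 lay below the vehicle tumors, and groups did not overlap in 7.16% of all genes. The log2 fold change of -0.40 (SE 0.15) did not pass, with adjusted p = 0.190 in limma. At 30 mg/kg the values were 14.2, 15.5, 18.5 and 19.5 (mean 16.9 ± 2.47, n = 4) and overlapped with vehicle (log2 fold change -0.07, SE 0.15, adjusted p = 0.916). These 3 comparisons share the vehicle tumors. Set directly against 30 mg/kg, 200 mg/kg differed by -0.57 (SE 0.14), which just missed the threshold with adjusted p = 0.0633. In that comparison 0 of 44 members passed in limma (7 at an unadjusted p under 0.05), against 0.199% of all genes.

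At 1 h ADAMTS15 did not pass. The FPKM was 13.4 to 18.98 in vehicle (median 17.4, n = 5) and 17.1, 17.5, 18.3 and 20.3 at 200 mg/kg, with a log2 fold change of 0.13 (SE 0.14) and adjusted p = 1. All 4 treated tumors lay above the vehicle mean of 16.7, within or just above the vehicle range. The effect of 200 mg/kg at 24 h minus that at 1 h was -0.77 (SE 0.20), at the edge of the threshold with adjusted p = 0.0501. This difference in effect passed for 0 of 44 members (9 at an unadjusted p under 0.05), against 0.583% of all genes.

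At 3-6 h, the comparison on which the set was chosen, ADAMTS15 was 12.4 to 22.1 FPKM in vehicle (median 17.3, n = 10) and 9.41 to 17.0 at 200 mg/kg (median 11.4, n = 10). The ranges overlapped, with 5 of 10 treated tumors below every vehicle tumor. At 200 mg/kg the 2 cage groups had medians of 12.5 and 10.3 FPKM, and the vehicle cage groups of 17.7 and 15.3. The drop of 33.0% in the mean is a description only. The count of 1 of 44 members past the threshold, against 0.069% of all genes, is no test of the set. That member is ADAMTS15, and the set was chosen on its drop in these same tumors, so no conclusion is drawn from the count.

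The same vehicle tumors served for 100 mg/kg, where ADAMTS15 ranged from 8.52 to 16.7 FPKM (median 11.4, n = 10). Here 7 of 10 tumors were below every vehicle tumor, and the log2 fold change was -0.54 (SE 0.10, adjusted p = 0.00138). The vehicle tumors of 3-6 h also entered the choice of ADAMTS15, so its p-values against them are not independent of that choice. Cage group 7 (8.52, 8.70, 9.52, 11.3 and 14.6 FPKM) lay lower than cage group 6 (10.8, 11.4, 11.9, 16.1 and 16.7 FPKM). Against both vehicle cage groups, cage group 7 alone passed (log2 fold change -0.70, adjusted p = 0.00012) and cage group 6 alone did not (-0.37, adjusted p = 0.877). The call was also lost against vehicle cage group 3 alone (-0.41, adjusted p = 0.0980) and in a fit of only the groups compared (adjusted p = 0.0736). At 30 mg/kg the range was 11.6 to 18.1 FPKM (median 15.1) and the log2 fold change -0.21 (SE 0.10, adjusted p = 0.630).

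**Figure D2:**
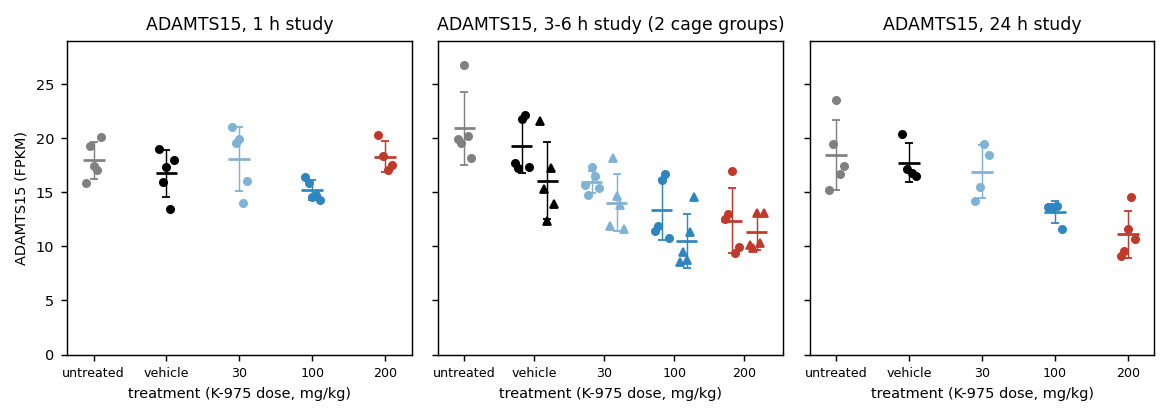
ADAMTS15 in FPKM in every tumor of the 3 studies by treatment. Points are tumors (triangles, the second cage group at 3-6 h), horizontal lines group means and bars the SD. At 24 h the 5 tumors of 200 mg/kg (9.11 to 14.6 FPKM) lie below the 4 vehicle tumors (16.5 to 20.4 FPKM), and at 1 h the groups overlap.

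Other members passed in the 24 h study at 200 mg/kg. Of 44 members, 8 passed the threshold, 5 higher and 3 lower (18.2%), against 7.41% of all genes tested. ADAMTS1, ADAM12 and ADAMTS15 fell, and TIMP2, ADAM33, ADAMTS10, MMP16 and MMP2 rose. With the 3 shallow libraries kept, 0 members passed in limma (7 at an unadjusted p under 0.05). The median log2 fold change was 0.14 over the members and 0.04 over all genes. In 5 members, ADAMTS15, TIMP2, ADAMTS10, ADAMTS13 and ADAMTS3, the treated and vehicle tumors did not overlap, as in 7.45% of all genes.

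Of the 4 proteoglycanases tested (7 in the table), 2 fell. ADAMTS1 was 36.1, 47.2, 49.5 and 52.5 FPKM in vehicle and 11.8, 14.7, 19.4, 25.8 and 52.7 at 200 mg/kg. In 4 of 5 treated tumors it lay below every vehicle tumor, and in the remaining one above all of them. The log2 fold change was -1.05 (SE 0.30, adjusted p = 0.0221), from 46.3 ± 7.17 to 24.9 ± 16.4. This call was lost in a fit of only the groups compared. ADAMTS1 is one of the positive effector genes listed by the study. ADAMTS9 (-0.53, SE 0.33) and ADAMTS5 (-0.21, SE 0.19) had negative values that did not pass (adjusted p = 0.366 and 0.557).

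Among the 10 ADAMs known as active proteinases, 1 fell and 1 rose. ADAM12 was 62.6, 65.7, 82.1 and 89.0 FPKM in vehicle and 24.8, 27.6, 34.3, 39.4 and 63.2 at 200 mg/kg. Only the highest treated tumor reached into the vehicle range, and the mean fell from 74.9 ± 12.7 to 37.9 ± 15.3 (log2 fold change -1.03, SE 0.28, adjusted p = 0.0130). Untreated tumors ranged more widely, from 36.0 to 84.6 FPKM, and against them the call was lost (log2 fold change -0.68, adjusted p = 0.0909). The 2 vehicle cage groups of the 3-6 h study differed from each other by 0.97 (SE 0.26, adjusted p = 0.0698) in this gene, close to the size of the difference from vehicle at 24 h. ADAM33, an ADAM known from airway mesenchyme, was 5.47, 5.76, 6.93 and 8.03 in vehicle and 7.40, 8.15, 11.0, 11.95 and 14.0 at 200 mg/kg, with 4 of 5 above every vehicle tumor (log2 fold change 0.59, SE 0.19, adjusted p = 0.0420). The ADAM33 call was lost with quantile normalization (adjusted p = 0.0692), with no filter on low values (0.0516) and in a fit of only the groups compared (0.112). The abundant sheddases stayed near vehicle, with log2 fold changes of -0.10 (SE 0.07) for ADAM10, -0.01 (SE 0.04) for ADAM9 and 0.16 (SE 0.11) for ADAM17, none of which passed.

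Among the other ADAMTS, 1 of 7 tested rose. ADAMTS10 was 30.9, 34.9, 35.1 and 42.0 FPKM in vehicle and 46.0, 59.7, 61.4, 62.0 and 66.0 at 200 mg/kg. The groups did not overlap, and the mean rose from 35.7 ± 4.62 to 59.0 ± 7.64 (log2 fold change 0.71, SE 0.14), the lowest adjusted p among members at 0.000669. Untreated tumors of the same study were higher than vehicle (38.6 to 57.9 FPKM), and against them the log2 fold change was 0.38 with adjusted p = 0.0579. ADAMTS13, the protease of von Willebrand factor, was low but separated (0.345 to 0.880 FPKM in vehicle and 1.02 to 1.52 at 200 mg/kg; log2 fold change 0.54, SE 0.18, adjusted p = 0.0560). ADAMTS17 (0.54, SE 0.33, adjusted p = 0.357) and ADAMTS6 (-0.54, SE 0.28, adjusted p = 0.239) did not pass either.

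None of the 3 procollagen N-propeptidases passed. ADAMTS2 was 45.4 to 69.6 FPKM in vehicle and 68.2 to 97.4 at 200 mg/kg (log2 fold change 0.46, SE 0.17, adjusted p = 0.0857). ADAMTS14, at about 1 FPKM or less, had a log2 fold change of 0.43 (SE 0.15, adjusted p = 0.0549). ADAMTS3 had the opposite sign, with 48.0 to 58.9 FPKM in vehicle and 42.2 to 47.5 at 200 mg/kg (log2 fold change -0.23, SE 0.11, adjusted p = 0.182), although these groups did not overlap.

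ADAM12 and ADAMTS10 moved in opposite directions and both have promoter windows in the RefSeq table (GRCh38.p14), so their windows from 250 bases before to 50 after the start site are shown, 5′ to 3′ on the strand of the gene. ADAM12 is at chr10:126388428-126388727 on the minus strand, and ADAMTS10 at chr19:8610666-8610965 on the minus strand for the upstream one of its 2 start sites. Both were searched on both strands for the TEAD motif, CATTCC or its complement GGAATG, and for the AP-1 motif TGANTCA, and neither window held one. GC content was 71.0% and 79.3%.
ADAM12: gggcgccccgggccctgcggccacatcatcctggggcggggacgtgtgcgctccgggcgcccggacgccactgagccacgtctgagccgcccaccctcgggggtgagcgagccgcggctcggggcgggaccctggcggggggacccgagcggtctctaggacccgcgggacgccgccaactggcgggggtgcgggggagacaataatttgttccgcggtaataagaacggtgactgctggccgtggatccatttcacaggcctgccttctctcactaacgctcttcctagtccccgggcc
ADAMTS10: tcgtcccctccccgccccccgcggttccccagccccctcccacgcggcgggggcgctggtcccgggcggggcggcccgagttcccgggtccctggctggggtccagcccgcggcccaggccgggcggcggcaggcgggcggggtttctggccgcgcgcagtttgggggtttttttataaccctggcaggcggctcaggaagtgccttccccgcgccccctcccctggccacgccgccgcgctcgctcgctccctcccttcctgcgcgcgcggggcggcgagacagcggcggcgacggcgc

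Of all 35116 promoter windows, 14.0% held the TEAD letters and 7.71% the AP-1 letters. Windows were listed for 39 members (40 windows). CATTCC or GGAATG occurred in 5 of the 40 (ADAM17, ADAMTS6, ADAMTS12, ADAMTS13 and ADAMTS20) and TGANTCA in 4 (ADAMTS12, MMP7, MMP10 and MMP20). ADAMTS15, ADAMTS1, TIMP2, MMP2, ADAM33, MMP1 and MMP3 were not listed.

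Among gelatinases and membrane-type MMPs, MMP2 and MMP16 rose. MMP2, which cuts denatured collagen and type IV collagen, was 5.36, 6.89, 7.16 and 9.40 FPKM in vehicle and 7.50, 13.0, 21.3, 26.8 and 33.4 at 200 mg/kg. In 4 of 5 treated tumors it exceeded every vehicle tumor, and the mean rose from 7.20 ± 1.67 to 20.4 ± 10.4 (log2 fold change 1.24, SE 0.37, adjusted p = 0.0270). MMP2 in untreated tumors reached 17.3 FPKM, and against untreated the call was lost (0.96, adjusted p = 0.0718). The MMP2 call was also lost in a fit of only the groups compared. MMP16 was 3.31, 3.57, 4.83 and 6.62 in vehicle and 6.44, 7.39, 10.4, 12.2 and 12.9 at 200 mg/kg (log2 fold change 0.96, SE 0.31, adjusted p = 0.0422). The MMP16 call was lost with quantile normalization (adjusted p = 0.0657), with no filter on low values (0.0551) and in a fit of only the groups compared (0.0547). MMP17 (0.93, SE 0.35, adjusted p = 0.0885) and MMP15 (0.41, SE 0.21, adjusted p = 0.234) were also above vehicle in 4 of 5 tumors without passing. MMP14, the most abundant MMP, had a log2 fold change of -0.19 (SE 0.16, adjusted p = 0.518).

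The collagenase MMP1 and the stromelysin MMP3 had the largest negative log2 fold changes and also the widest errors. MMP1 was 6.07, 9.21, 11.0 and 12.4 FPKM in vehicle and 0.680, 2.28, 4.96, 6.16 and 8.35 at 200 mg/kg (log2 fold change -1.15, SE 0.65, adjusted p = 0.299). MMP3 was 6.32, 17.8, 20.1 and 32.8 in vehicle and 1.84, 4.73, 11.1, 11.3 and 15.4 at 200 mg/kg (log2 fold change -1.09, SE 0.79, adjusted p = 0.446). The groups overlapped in both genes. MMP10 (0.12, SE 0.51), MMP11 (0.41, SE 0.30) and MMP28 (0.48, SE 0.30) did not pass.

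Of the 3 inhibitors tested, TIMP2 rose. It was 587, 599, 630 and 711 FPKM in vehicle and 731, 793, 805, 900 and 959 at 200 mg/kg, and the groups did not overlap. The mean went from 631.5 ± 56.0 to 838 ± 90.96 (log2 fold change 0.40, SE 0.09, adjusted p = 0.00127). The call held without each tumor in turn and against untreated tumors (0.38, adjusted p = 0.000981). TIMP1 (-0.09, SE 0.21) and TIMP3 (-0.02, SE 0.12) did not pass.

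**Figure D3:**
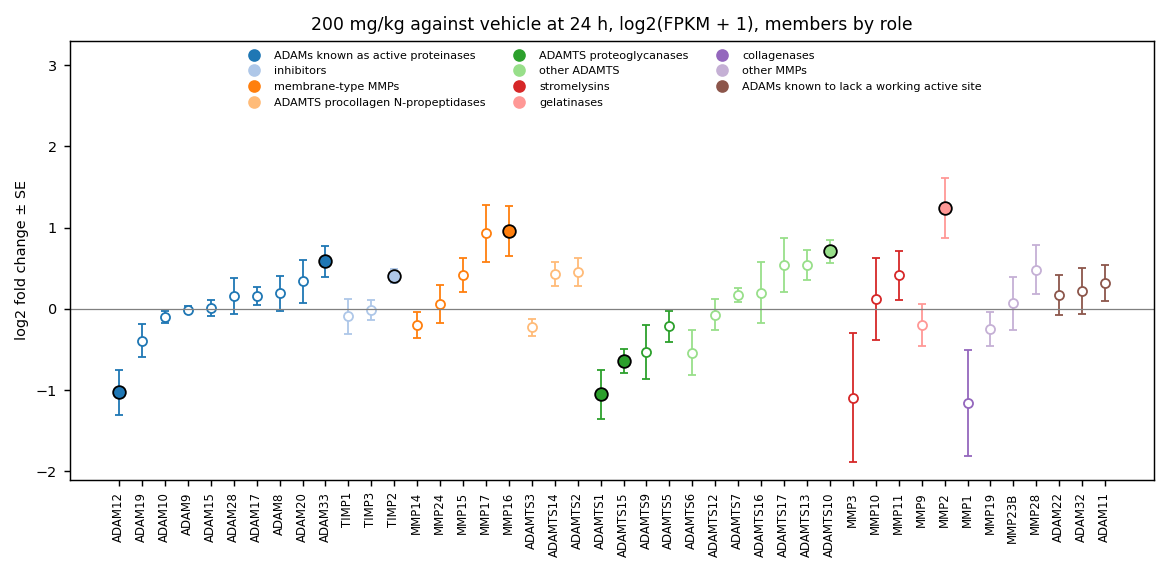
Log2 fold change at 200 mg/kg against vehicle at 24 h for the 44 tested members, on log2(FPKM + 1), with bars for the SE. Colors mark roles, and filled symbols with a black edge the 8 members with an adjusted p under 0.05 (3 lower, 5 higher). MMP1 and MMP3 have the widest bars.

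One treated tumor was often the nearest to vehicle. Replicate 2 of 200 mg/kg was the tumor nearest the vehicle mean in 6 of the 8 members (ADAMTS1, ADAM12, TIMP2, ADAMTS10, MMP16 and MMP2), but not in ADAMTS15, where it was the second lowest at 9.58 FPKM. Without it 12 members passed. Fewer passed without replicate 1 (3 members), 3 (5 members) or 5 (5 members) of 200 mg/kg, or without replicate 1 (3 members) or 2 (4 members) of vehicle. ADAMTS15, TIMP2 and ADAMTS10 passed in each of the 9 fits that left out 1 tumor, and the other 5 did not.

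At the lower doses of the 24 h study, which share these vehicle tumors, 0 of 44 members passed in limma. The share of all genes that passed was 1.12% at 100 mg/kg and 0.0384% at 30 mg/kg. At 100 mg/kg 11 members had an unadjusted p under 0.05, as had 1837 of all 13036 genes. The lowest was MMP11, a stromelysin of stromal cells, with 0.149 to 0.887 FPKM in vehicle and 0.623 to 4.11 at 100 mg/kg (log2 fold change 1.13, SE 0.32, adjusted p = 0.05). ADAMTS3 (-0.35, SE 0.11, adjusted p = 0.0896) and ADAMTS10 (0.47, SE 0.15, adjusted p = 0.103) came next. ADAMTS10 at 44.4 to 57.2 FPKM lay above all vehicle tumors, and groups did not overlap in 7.16% of all genes.

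At 30 mg/kg 7 members had an unadjusted p under 0.05, as had 1308 of all 13036 genes. MMP17, a membrane-type MMP with a lipid anchor, was 5.74 to 11.9 FPKM against 1.80 to 2.68 in vehicle (log2 fold change 1.37, SE 0.37, adjusted p = 0.114). MMP15 was 44.1 to 63.2 FPKM against 27.3 to 32.7 (0.69, SE 0.22, adjusted p = 0.245). ADAM12 was 30.9 to 47.5 FPKM against 62.6 to 89.0 in vehicle (-0.82, SE 0.29, adjusted p = 0.311). These 3 were among 6 members in which the tumors of 30 mg/kg and vehicle did not overlap, as in 6.74% of all genes, and none of them passed.

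**Figure D4:**
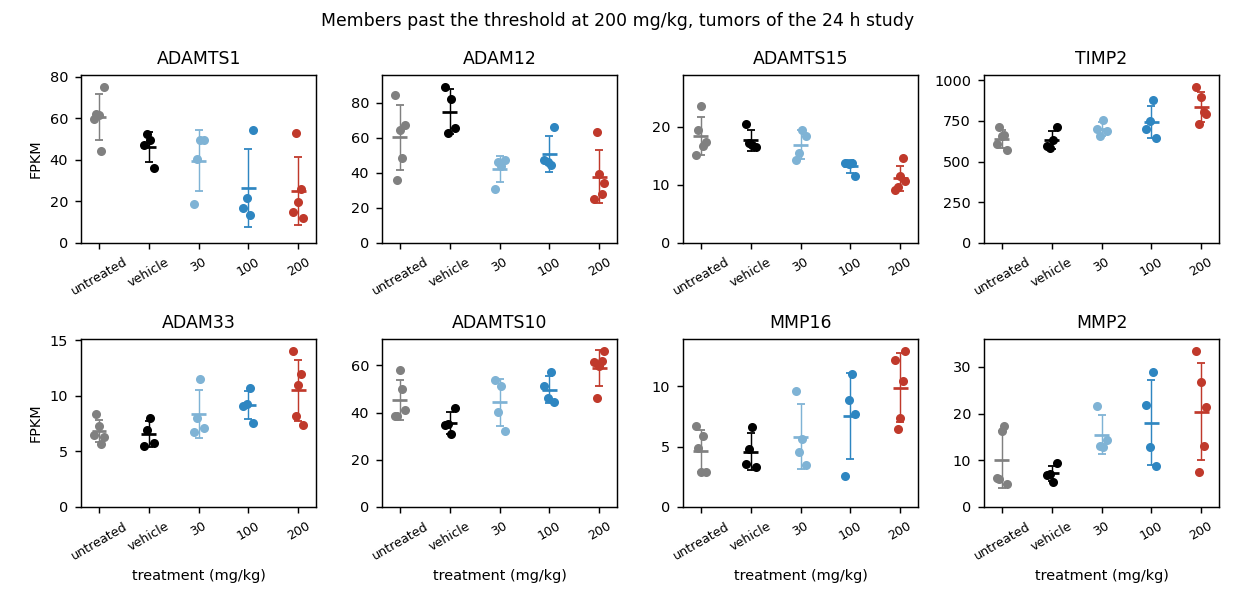
FPKM of the 8 members past the threshold at 200 mg/kg in every tumor of the 24 h study, by treatment, with lines for group means and bars for the SD. ADAMTS15, TIMP2 and ADAMTS10 show no overlap between 200 mg/kg and vehicle, and in ADAM12, MMP2, MMP16 and ADAM33 1 tumor of 200 mg/kg lies within the vehicle range, and in ADAMTS1 just above it.

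At 3-6 h, 2 of 44 members were lower at 100 mg/kg (4.55%), against 0.43% of all genes. ADAMTS15 is 1 of these. The set was chosen on it with the same vehicle tumors, so this share is a description only. The other was ADAM10, at 653 to 853 FPKM in vehicle (median 779, n = 10) and 629.5 to 713 at 100 mg/kg (median 661.5, n = 10). The treated tumors filled a narrow range at the lower end of the vehicle range, with 3 of 10 below every vehicle tumor. The log2 fold change was -0.20 (SE 0.05, adjusted p = 0.0280), a drop of 13.4% in the mean. The call was lost against vehicle cage group 2 alone (-0.17, adjusted p = 0.262), with cage group 6 of the dose alone (-0.18, adjusted p = 0.900), against untreated tumors (-0.20, adjusted p = 0.195) and with quantile normalization (-0.19, adjusted p = 0.112).

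At 200 mg/kg and 3-6 h, described without a test, ADAMTS1 averaged 25.4 ± 8.36 FPKM against 39.1 ± 7.32 in vehicle (n = 10 each), with 6 of 10 tumors below every vehicle tumor. ADAMTS10 averaged 50.3 ± 6.64 against 41.2 ± 5.20 FPKM, with 6 of 10 tumors above every vehicle tumor. TIMP2, by contrast, averaged 733 ± 28.3 against 748 ± 51.6 FPKM, ADAM12 48.3 ± 11.2 against 49.3 ± 25.7 and MMP2 13.3 ± 5.32 against 13.2 ± 6.40. At 30 mg/kg 0 of 44 members passed in limma (5 at an unadjusted p under 0.05), against 0.0153% of all genes. The lowest p there was that of ADAM33, at 12.4 ± 2.87 FPKM against 9.53 ± 2.54 (log2 fold change 0.36, SE 0.13, adjusted p = 0.464).

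Side by side over the doses of the 24 h study, the means of ADAMTS1 were 46.3 FPKM in vehicle, then 39.6, 26.5 and 24.9 with rising dose. The corresponding means of ADAM12 were 74.9, 42.2, 50.8 and 37.9 FPKM, those of MMP2 7.20, 15.5, 18.1 and 20.4 and those of TIMP2 631.5, 701.5, 742 and 838. In these 4 genes the values at 200 mg/kg passed and those at both lower doses did not.

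At 1 h, 0 of 44 members passed at any dose in limma, with 2 at an unadjusted p under 0.05 at each. For the doses of 200, 100 and 30 mg/kg the background was 0%, 0.00767% and 0% of all genes (435, 648 and 571 genes had an unadjusted p under 0.05). The lowest p at 100 mg/kg was that of MMP14, at 49.2 to 57.1 FPKM against 59.1 to 83.4 in vehicle (log2 fold change -0.38, SE 0.15, adjusted p = 0.953). These groups did not overlap, as in 0.828% of all genes. ADAM32 at 200 mg/kg was 1.10 to 4.49 FPKM against 0.228 to 1.06 (0.77, SE 0.29, adjusted p = 1). MMP28 at 30 mg/kg had a log2 fold change of -0.62 (SE 0.28, adjusted p = 1).

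Vehicle was also set against untreated tumors, to see what dosing alone did. At 24 h, at 3-6 h and at 1 h, 0 of 44 members passed in limma, although 2, 3 and 4 members had an unadjusted p under 0.05, and the background was 0% of all genes in each of the 3 studies (547, 629 and 616 genes at an unadjusted p under 0.05). At 24 h the lowest p was that of ADAMTS10, at 30.9 to 42.0 FPKM in vehicle and 38.6 to 57.9 untreated (log2 fold change -0.32, SE 0.14, adjusted p = 1). At 3-6 h it was that of ADAM9 (0.12, SE 0.04, adjusted p = 0.677), and at 1 h that of ADAM15 (0.26, SE 0.09, adjusted p = 0.881). ADAMTS15 differed by -0.24 (SE 0.12, adjusted p = 0.988) at 3-6 h, with untreated tumors at 18.2 to 26.8 FPKM.

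MMP1, MMP3 and MMP10 lie within one cluster of MMP genes on chromosome 11, at chr11:102789920-102798160, chr11:102835801-102843803 and chr11:102770503-102780628, all on the minus strand (GRCh38). They varied together from tumor to tumor. In the untreated and vehicle tumors, MMP1 and MMP3 on the log2(FPKM + 1) scale were correlated in each study, with Pearson's r of 0.909 (permutation p = 0.00218, n = 10) at 1 h, 0.957 (permutation p = 2e-05, the smallest the permutations can give, n = 15) at 3-6 h and 0.805 (exact permutation p = 0.00976, n = 9) at 24 h. Spearman's rho was 0.733 (permutation p = 0.0203), 0.913 (p = 2e-05) and 0.817 (exact p = 0.0108). Adjusted over the 9 relations computed (3 pairs in 3 studies), the p-values for r were 0.0049, 0.00018 and 0.0176 and those for rho 0.0365, 0.00018 and 0.0242. Without the 2 tumors farthest from the median of MMP1, r was 0.858, 0.922 and 0.685.

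MMP10 followed less evenly. Its r with MMP1 was 0.607 (adjusted permutation p = 0.0981) at 1 h, 0.859 (0.0003) at 3-6 h and 0.51 (adjusted exact p = 0.187) at 24 h, with rho of 0.442, 0.811 and 0.5 (adjusted p = 0.227, 0.00126 and 0.227). Its r with MMP3 was 0.749, 0.853 and 0.121 (adjusted permutation p = 0.034, 0.0003 and 0.753) and its rho 0.539, 0.845 and 0.167 (adjusted p = 0.172, 0.0009 and 0.678). Without the 2 farthest tumors r was 0.453, 0.767 and 0.54 with MMP1 and 0.67, 0.713 and 0.564 with MMP3. The pairs were chosen after the values had been seen, and the 2 values of a point come from 1 library. Untreated and vehicle tumors were pooled, at 3-6 h with both vehicle cage groups, so differences between groups enter these correlations and their p-values. The same tumor was highest for MMP1 and MMP3 in 13 of the 19 groups.

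In cage group 9 of the 3-6 h study (30 mg/kg) all 3 genes were low. MMP1 was 0, 0.158, 0.166, 0.196 and 0.204 FPKM there and 1.82, 2.04, 3.94, 4.69 and 5.64 in cage group 8, which received the same dose. MMP3 was 0, 0, 0.155, 0.327 and 0.996 FPKM in cage group 9 and 3.47, 4.28, 7.63, 8.72 and 10.9 in cage group 8. The groups did not overlap in these genes, whereas MMP10 overlapped (0 to 0.751 against 0.227 to 2.77 FPKM). The share of all genes without overlap between these cage groups was not computed, so no conclusion is drawn from the separation. The difference of cage group 9 from 8 was -2.58 (SE 0.75, adjusted p = 0.346) for MMP3, -1.94 (SE 0.62, adjusted p = 0.470) for MMP1 and -0.78 (SE 0.48, adjusted p = 0.812) for MMP10, on the log2 scale in limma. In this comparison, chosen after the values had been seen, 0 of 44 members passed (4 at an unadjusted p under 0.05), against 0% of all genes. Cage group and sampling time cannot be told apart here.

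Between the paired cage groups of the other arms 0 of 44 members passed as well, against 0.33% of all genes for vehicle, 0.0153% for 200 mg/kg and 0.046% for 100 mg/kg. At an unadjusted p under 0.05 there were 6, 4 and 2 members. The lowest p was that of ADAM12 in vehicle, higher in cage group 3 than in cage group 2 by 0.97 (SE 0.26, adjusted p = 0.0698). ADAMTS15 in vehicle differed by -0.26 (SE 0.14, adjusted p = 0.519).

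**Figure D5:**
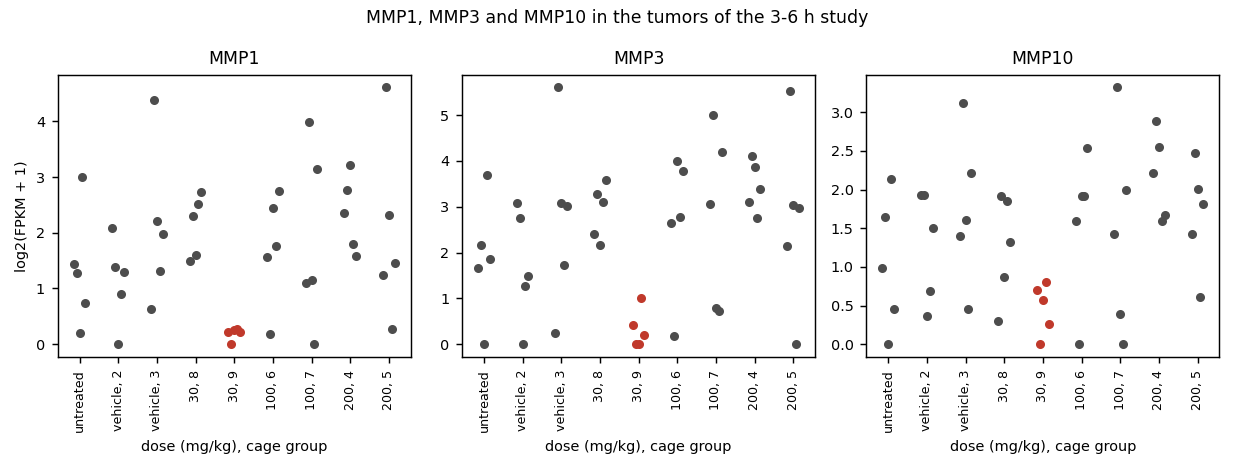
MMP1, MMP3 and MMP10 as log2(FPKM + 1) in every tumor of the 3-6 h study, by dose and cage group. Red points are cage group 9 (30 mg/kg), where MMP1 is at most 0.204 FPKM and MMP3 at most 0.996 FPKM in all 5 tumors.

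Of the 3, MMP10 has a promoter window in the RefSeq table (GRCh38.p14), at chr11:102780579-102780878 on the minus strand. It is shown because it holds 1 AP-1 motif, TGANTCA, in capitals, beginning 67 bases before the start site, and no TEAD motif. Its GC content was 36.3%.
MMP10: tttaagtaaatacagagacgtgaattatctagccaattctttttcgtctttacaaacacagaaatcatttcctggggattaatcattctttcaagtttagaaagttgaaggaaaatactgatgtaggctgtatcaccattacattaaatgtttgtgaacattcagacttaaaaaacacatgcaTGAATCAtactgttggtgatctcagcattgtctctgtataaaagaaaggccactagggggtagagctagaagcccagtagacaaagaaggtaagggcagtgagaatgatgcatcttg

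Genes that act with the family were counted from fixed lists at 200 mg/kg and 24 h. Among activators and genes of the plasminogen system, PLAUR, the urokinase receptor, fell from 171 ± 7.31 to 108 ± 42.2 FPKM (log2 fold change -0.72, SE 0.22, adjusted p = 0.0328), with 4 of 5 treated tumors below every vehicle tumor and 1 above all of them. FURIN, which activates membrane-type MMPs and ADAMs, was at 320 ± 26.3 against 301 ± 26.5 FPKM and did not pass. Of 7 ADAMTS-like proteins, which lack a proteinase domain, ADAMTSL4 fell from 40.5 ± 0.641 to 26.6 ± 2.49 FPKM (-0.59, SE 0.11, adjusted p = 0.000401). ADAMTSL4 was also lower at 100 mg/kg, at 24 h (-0.45, adjusted p = 0.0403) and at 3-6 h (-0.39, adjusted p = 0.00369). None of 8 tetraspanin and rhomboid cofactors of ADAM10 and ADAM17 passed. Nor did the link proteins HAPLN1 and HAPLN3, 1 astacin metalloproteinase or 1 inhibitor outside the TIMP family. No proteoglycan substrate of the list was among the genes tested.

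Markers of cell types were read beside the 8 members at 24 h. Of 7 mesothelial markers, KRT19, CALB2 and MSLN rose. WT1, KRT18 and PDPN, which were present in every tumor, did not rise, and neither did UPK3B, at 0 in 3 of 91 libraries. The summed level of the list was 1856 to 1906 FPKM in vehicle and 1995 to 2520 at 200 mg/kg. Untreated tumors, at 1692 to 2210 FPKM, overlapped with 200 mg/kg, and tumors of 30 mg/kg were at 2166 to 2356. The part of this sum in the members' changes was not tested. None of 5 tested leukocyte and macrophage markers, 5 fibroblast markers or 3 endothelial markers passed. Their sums were 155.5 to 233 and 137 to 218 FPKM, 872.5 to 1070 and 774 to 1420 FPKM, and 31.0 to 67.8 and 26.8 to 92.2 FPKM in vehicle and at 200 mg/kg. TYROBP was at 0 in all 91 libraries, PECAM1 at 0 in 79 and COL1A2 at 0 in 85, and PTPRC had a median of 0.168 FPKM. COL1A1 and COL3A1, at medians of 560 and 267 FPKM, made up most of the fibroblast sum. The genes are human and the host is a mouse, and how mouse reads were treated is not given. These sums can therefore not be read as amounts of host cells.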

How the data were processed

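Total RNA of xenograft tumors was captured with KAPA HyperCap probes and sequenced as paired ends by the study. The deposited values are FPKM, 1 column per library. STAR and GRCh38 are named in the submitters' processing notes, while the tool that made the FPKM and the treatment of mouse reads are not given in the sources used here. No read counts are held, so depth is unknown and no counting interval was computed. Per gene ID the entry with the highest mean was kept (20239 of 20555), and 32 blank cells were read as 0. The 13036 genes that reached 1 FPKM in 4 or more of 91 libraries were fitted with limma 3.58.1 (R 4.3.3) on log2(FPKM + 1), which understates changes of low genes, with eBayes (trend, robust) and 1 coefficient per group (19). At 3-6 h the cage groups of an arm were averaged. A library needed 10000 genes at 1 FPKM. Adjusted p-values are Benjamini-Hochberg over all genes per comparison, threshold 0.05. Correlations used SciPy 1.17.1 with two-sided permutations (exact for 9 tumors, otherwise 100000). The fit was tested on simulated data. Replicates are separate mice by the labels. Coordinates (1-based) come from the table, and 58 member loci were identical to GENCODE 29, a GRCh38 annotation.

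The list of activators and plasminogen system genes is not reported here in full. The members and lists were chosen with earlier results of these data known. Named were ADAMTS15 in every comparison, every member past the threshold, at 200 mg/kg and 24 h the 20 tested members with the largest absolute log2 fold change, for levels the 12 highest, the TIMPs and the highest of each role, 3 effector genes of the study, and where none passed up to 3 with the lowest p.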

Additional observations from a re-analysis of the deposited data

Results flagged for a closer look

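Tumors far from the others were sought in 49 sets, each the values of a gene in a group of 4 or 5 tumors. By Dixon's criterion at the 95% level 4 sets held such a tumor, which chance alone gives in about 1 of 20 independent sets. The same tumors entered more than 1 set, so the sets are not independent. For ADAMTS15 these were the lowest tumor of 100 mg/kg at 24 h (11.6 FPKM, the others 13.66 to 13.74), the highest untreated tumor at 3-6 h (26.8 FPKM, the others 18.2 to 20.2) and the highest vehicle tumor at 24 h (20.4 FPKM, the others 16.5 to 17.2). For MMP1 it was the tumor at 0 FPKM in cage group 9 of 30 mg/kg, where the others were at 0.158 to 0.204.

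For ADAMTS15 at 200 mg/kg the 4 tumors kept at 1 h were above the vehicle mean (mean 9.34% higher), and all 5 at 24 h were below it (mean changed by -37.3%). The shallow library of 200 mg/kg at 1 h, left out of this comparison, was listed at 11.5 FPKM, below the vehicle mean of 16.7. The test of the difference gave -0.77 on the log2 scale (SE 0.20, adjusted p = 0.0501 in limma).

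In the shallow library of 30 mg/kg at 24 h, which entered only the fits with all 94 libraries, ADAMTS15 was listed at 160 FPKM, above the control range of 12.4 to 26.8 FPKM. In that library 62 of the 66 members were at 0. The shallow library of 100 mg/kg at 24 h listed ADAMTS15 at 2.73 FPKM, with 40 members at 0.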

How the results depend on the processing

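Of 468 values of named members under other settings, 465 kept their direction and 3 reversed, each for ADAMTS15 and none past the threshold. At 30 mg/kg and 24 h the log2 fold change was 0.57 with all 94 libraries, among them the shallow library of this group listed at 160 FPKM. Without 1 tumor in turn it ran from -0.14 to 0.0051 (positive without 30 mg/kg replicate 2), and for vehicle minus untreated at 24 h from -0.11 to 0.0429 (positive without untreated replicate 3).

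With all 94 libraries, 3 of them shallow, 0 members passed at 200 mg/kg, 24 h (7 at an unadjusted p under 0.05), and 0 at 100 mg/kg, 3-6 h. There were 11 at 30 mg/kg, 24 h, and 17 for 200 minus 30 mg/kg, where the median of all genes moved to -0.65 and 0.70. Over all genes at 200 mg/kg, 24 h, 0 passed with all libraries and 324 in a fit of only the groups compared, against 966. Fitting only the groups compared gave 4 at 200 mg/kg, 24 h, 1 at 30 mg/kg, 24 h, and 0 at 100 mg/kg, 3-6 h. With untreated tumors as reference 2 passed at 100 mg/kg, 24 h, 1 at 100 mg/kg, 3-6 h, and 3 in the effect at 24 h minus 1 h. That effect gave 1 with a pseudocount of 0.1, with at least 20 libraries at 1 FPKM, with quantile normalization and with upper quartile scaling. Quantile normalization gave 1 at 100 mg/kg, 3-6 h, and 1 for 200 minus 30 mg/kg, and limma without trend and robust gave 1 at 100 mg/kg, 3-6 h. At 3-6 h, 100 mg/kg gave 1 against vehicle cage group 2 alone, 1 against cage group 3 alone and 0 with cage group 6 alone. No counts under other settings are given for 200 mg/kg, 3-6 h, since the set was chosen on that comparison. Counts for 100 mg/kg against vehicle at 3-6 h share its vehicle tumors.

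Leaving out 1 tumor in turn, 3 to 12 members passed at 200 mg/kg, 24 h, 0 to 1 at 100 mg/kg, 24 h, 1 to 2 at 100 mg/kg, 3-6 h, 0 to 1 for 200 minus 30 mg/kg, and 0 to 4 for the effect at 24 h minus 1 h. At 100 mg/kg, 24 h, the 1 came without vehicle replicate 2 or treated replicate 1, 2 or 4, and for the effect at 24 h minus 1 h 4 came without 200 mg/kg replicate 2 at 24 h, 2 without vehicle replicate 4 at 24 h and 1 without 200 mg/kg replicate 4 at 24 h or replicate 2 at 1 h. The other counts did not move. At 200 mg/kg, 24 h, ADAM12 lost its call without vehicle replicate 1 or treated replicate 1 (adjusted p = 0.0539 and 0.0677). ADAMTS1 lost it without vehicle replicate 1, 2 or 3 or treated replicate 1, 3 or 5 (up to 0.0969), MMP2 without the same 6 (up to 0.120), ADAM33 without vehicle replicate 1, 2 or 4 or treated replicate 1, 3 or 4 (up to 0.161), and MMP16 without vehicle replicate 1, 2 or 4 or treated replicate 1, 4 or 5 (up to 0.121). At 100 mg/kg, 3-6 h, ADAM10 lost it without vehicle cage group 2 replicate 3 or 5, cage group 6 replicate 1 or 4 or cage group 7 replicate 4 (up to 0.106). ADAMTS15 in 200 minus 30 mg/kg passed without 200 mg/kg replicate 4 (0.0225) or 30 mg/kg replicate 2 (0.045), and its effect at 24 h minus 1 h without vehicle replicate 4 or 200 mg/kg replicate 2 or 4 at 24 h (down to 0.0228). The cause was not tested. No paired analysis was possible because replicate numbers follow the order of the samples and the labels carry none.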
